A study of Rattus norvegicus with 40 samples.

Results

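The comparison concerned the livers of corn oil-treated LnC and LnA rats, a pair of lines bred from crosses of Han/Wistar (HW) and Long-Evans (LE) rats. Its members were chosen by label: the 4 LnC and the 4 LnA rats taken 19 h after a single corn oil gavage, 8 of the 40 arrays of the series. The aryl hydrocarbon receptor (AHR) of LnA rats lacks part of its transactivation domain, and these rats resist the dioxin TCDD, whereas LnC rats have the wildtype receptor and are sensitive. All were males of 10 to 12 weeks, with 1 array per rat, and none of these 8 had received TCDD. Values are given beside 3 other kinds of rat: LnC and LnA rats 19 h after 100 μg/kg TCDD, and corn oil-treated LE rats (wildtype AHR, sensitive) and HW rats (deleted AHR, resistant), 4 rats per group. Each group of 4 had been housed in a cage of its own, so cage and line cannot be told apart. The question was which hepatic mRNAs differ between the lines before any dioxin is given.

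The AHR is a ligand-activated transcription factor that pairs with ARNT and binds a short core motif in DNA. In liver its best known targets are drug-metabolizing enzymes of the CYP1 family and NAD(P)H quinone oxidoreductase. The lines share their parentage but were selected for opposite sensitivity to dioxin, so they can differ at the Ahr locus and at any other locus at which the parental strains differed.

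Signals were deposited as log2 values per probe set, and 10411 genes were tested, each by its probe set of highest mean over the 8 arrays. The median signal of an array lay between 3.58 and 3.76, and a gene is called low below where its group mean was under 3.58, since the size of a difference then depends on the low end of the scale. Arrays of 1 line correlated at 0.994 to 0.997 and arrays of different lines at 0.991 to 0.994 over all genes, and no array stood apart. The 8 arrays were scanned on 1 day and came from 1 chip lot, but all LnA arrays were scanned before the LnC arrays, so scan order and line cannot be told apart. The 14 hepatocyte markers measured had a mean signal of 14.07 to 14.15 in LnC rats and of 14.10 to 14.15 in LnA rats. None differed at an adjusted p under 0.05, against 0.845% of all genes. With a share this small, 0 of 14 does not set these markers apart from other genes.

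The lines differed in 19 genes at an adjusted p under 0.01, 0.182% of the genes tested. Of these, 10 were higher in LnC rats (0.0961%) and 9 were higher in LnA rats (0.0864%). The largest differences lay in Agtr1a and Lox, both much higher in LnA livers. At an adjusted p under 0.05 the count was 88 (0.845%), 43 higher and 45 lower in LnC rats. The 88 had differences of at least 0.19 on the log2 scale, with a median size of 0.70. Groups that did not overlap, with all 4 LnC rats on the same side of all 4 LnA rats, were found for 593 genes (5.70%), among them all 88. Over all genes the median of LnC minus LnA was -0.01, and 97 genes differed by more than 1 on the log2 scale, 13 of which were among the 19.

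**Figure D1:**
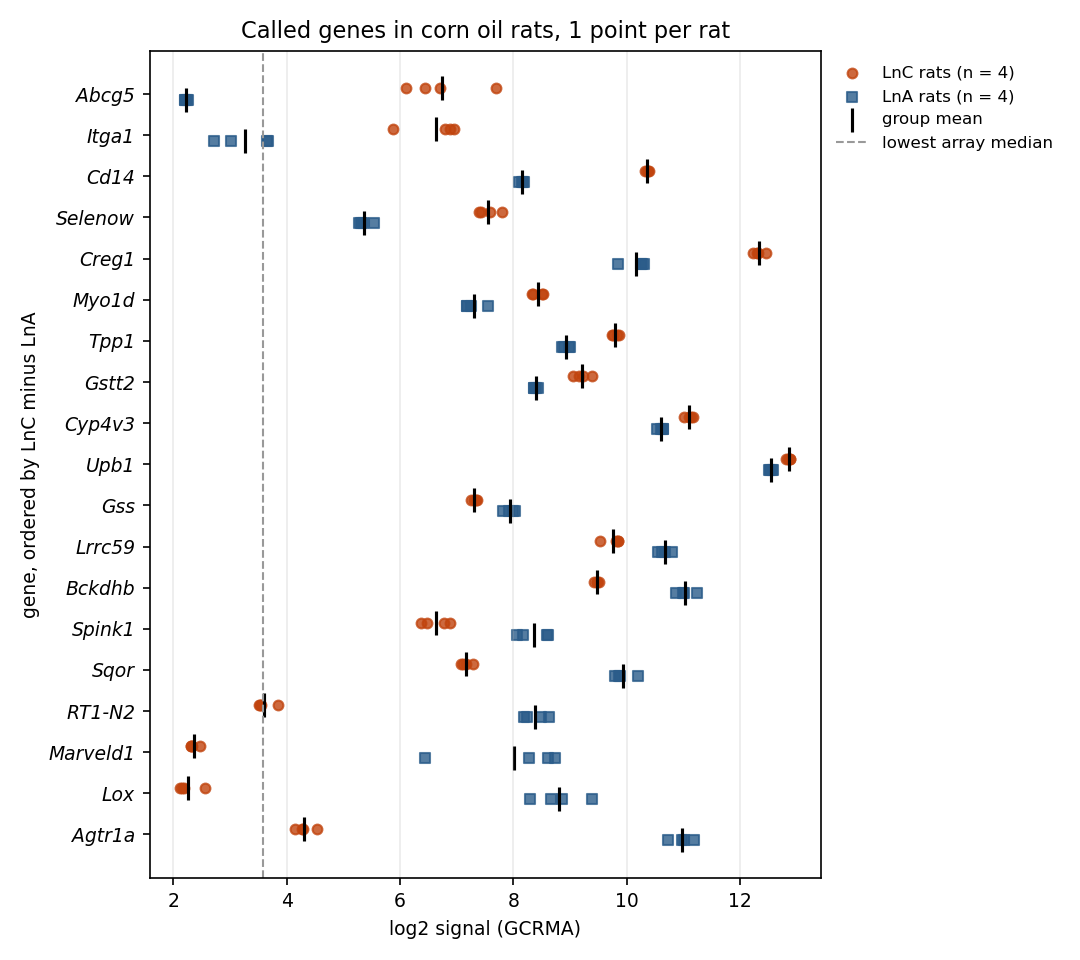
Log2 signal (x axis) of the 19 genes called at an adjusted p under 0.01, for each of 4 LnC rats (circles) and 4 LnA rats (squares), with group means as black ticks and the lowest array median, 3.58, as a dashed line. The groups do not overlap in any of the 19 genes, and Abcg5 and Itga1 in LnA rats and Marveld1 and Lox in LnC rats have means under the dashed line.

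Ahr itself did not differ at the probe set chosen for it. Its log2 signals were 3.05, 3.09, 3.14 and 3.10 in LnC rats and 3.13, 3.08, 3.07 and 3.21 in LnA rats, with a difference of -0.03 (standard error 0.04, adjusted p = 0.960). All of these values were low. At the other Ahr probe set the difference was -0.32, with signals of 2.04 to 2.29 in LnC rats and 2.16 to 3.03 in LnA rats. Where these probes lie relative to the deleted stretch is not known here, so neither probe set checks the labels.

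No member of the AHR gene battery was called between the lines in corn oil rats. Of its 7 members measured none differed at an adjusted p under 0.05, against 0.845% of all genes. None had groups that did not overlap, against 5.70% of all genes. With shares this small, 0 of 7 does not set the battery apart from other genes. The median difference was 0.05. With array weights 1 member, Aldh3a1, passed 0.05 (difference 0.56, adjusted p = 0.0382). Cyp1a1, the classic target of the receptor, varied widely within both lines: its log2 signals were 6.58, 4.07, 5.96 and 3.61 in LnC rats and 2.38, 5.20, 7.39 and 7.81 in LnA rats. The groups overlapped, and the difference of -0.64 had a standard error of 1.29 (adjusted p = 0.960). Cyp1a2, a constitutive hepatic monooxygenase, stood at 14.14 ± 0.15 (SD, n = 4) in LnC and 14.09 ± 0.22 in LnA rats. The differences of the other 5 were -0.87 for Tiparp, a feedback repressor of the AHR (adjusted p = 0.604), -0.46 for Nfe2l2, the regulator of antioxidant genes (0.376), 0.12 for Nqo1, the quinone reductase, 0.19 for Cyp1b1, an extrahepatic CYP1 enzyme, and 0.37 for Aldh3a1, an aldehyde dehydrogenase (0.545). The 12 members of the AHR complex and its coregulators held no gene past 0.05 either (median 0.01).

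Among receptors and genes of the extracellular matrix, Agtr1a had the largest difference of all genes tested. Agtr1a encodes the type 1a angiotensin II receptor, through which angiotensin II acts on vessels and liver. Its log2 signals were 11.19, 10.73, 11.02 and 10.98 in LnA rats and 4.15, 4.54, 4.29 and 4.27 in LnC rats. The lines were thus separated by more than 6 log2 units without overlap. LnC minus LnA was -6.67 (standard error 0.11, adjusted p = 2.13e-07), and the second probe set of the gene gave -5.85 (adjusted p = 1.21e-05 over every probe set). Of the 12 genes of the renin-angiotensin system and blood pressure receptors Agtr1a was the only one past 0.05. Among all genes 0.432% passed with LnC lower, and the list's median was -0.02.

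Lox encodes lysyl oxidase, the enzyme that crosslinks collagen and elastin. Its log2 signals were 8.30, 9.40, 8.87 and 8.67 in LnA rats and 2.12, 2.15, 2.57 and 2.18 in LnC rats, where it was low. The difference was -6.55 (standard error 0.23, adjusted p = 1.50e-05). The other probe set of Lox gave -2.72 (adjusted p = 0.0042 over every probe set), in the same direction.

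Itga1, the alpha 1 integrin chain that binds collagen and laminin, went the other way. Its log2 signals were 6.96, 6.79, 6.89 and 5.88 in LnC rats and 2.71, 3.68, 3.01 and 3.65 in LnA rats. LnC minus LnA was 3.36 (standard error 0.31, adjusted p = 0.00589), from a low mean in LnA. None of the 13 stellate and endothelial cell markers, cells that make and bind matrix, passed 0.05 (median 0.03). Among all genes 0.845% passed, so 0 of 13 does not set these markers apart. Their mean signal was 5.10 to 5.45 in LnC rats and 5.12 to 5.24 in LnA rats.

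Cd14, the coreceptor for bacterial lipopolysaccharide on monocytes and macrophages, had the lowest adjusted p of all genes tested. Log2 signals of Cd14 were 10.38, 10.40, 10.32 and 10.36 in LnC rats and 8.18, 8.11, 8.16 and 8.19 in LnA rats. The spread within a line was 0.04 (SD) in both, against a difference of 2.21 (standard error 0.03, adjusted p = 9.25e-08), or 4.61-fold. Some markers of macrophages were higher in LnC rats as well. Of the 16 macrophage and other immune cell markers measured, 10 had a positive and 6 a negative difference, 2 passed 0.05 (0.413% of all genes) and none passed 0.01, 4 had groups that did not overlap with LnC higher (2.84% of all genes), and the median was 0.19. Lyz2, lysozyme of myeloid cells, was higher by 1.79 (9.13 ± 0.27 in LnC, 7.34 ± 0.50 in LnA, adjusted p = 0.0328), and Clec4f, a lectin of Kupffer cells, by 0.62 (adjusted p = 0.0145). C1qa, a complement chain made by macrophages, gave 0.60 (adjusted p = 0.061). None of the 16 passed 0.05 without LnA replicate 3 or 4 or in a fit blocked on replicate number, and 1 passed when any 1 LnC array was left out. Markers of T, B and natural killer cells, namely Cd3d, Cd4, Cd8a, Cd79b, Klrd1 and Ncr1, were low in both lines. The mean signal over the 16 markers was 5.33 to 5.48 in LnC rats and 5.09 to 5.14 in LnA rats, and its part in the Cd14 difference was not tested. In whole liver, fewer cells of a type and less RNA per cell cannot be told apart.

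Abcg5 and Abcg8 encode the partners of a single transporter that moves cholesterol and plant sterols into bile. The log2 signals of Abcg5 were 6.10, 6.71, 7.69 and 6.44 in LnC rats and 2.24, 2.21, 2.21 and 2.26 in LnA rats. All LnA values were low and nearly equal, and the difference was 4.50 (standard error 0.31, adjusted p = 0.00107). Abcg8 followed with 4.95, 4.96, 5.64 and 4.11 in LnC rats and 1.91, 2.52, 2.48 and 2.38 in LnA rats, a difference of 2.59 (standard error 0.31, adjusted p = 0.0172).

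The genes lie head to head, and their RefSeq promoter windows, each of 300 bases around the start (GRCr8), overlap by 295 bases. The window of Abcg5 is shown because both members of the pair were higher in LnC rats, at chr6:15717686-15717985 on the plus strand. No GCGTG, the core motif bound by AHR and ARNT, was found on either strand of it.

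Abcg5 promoter: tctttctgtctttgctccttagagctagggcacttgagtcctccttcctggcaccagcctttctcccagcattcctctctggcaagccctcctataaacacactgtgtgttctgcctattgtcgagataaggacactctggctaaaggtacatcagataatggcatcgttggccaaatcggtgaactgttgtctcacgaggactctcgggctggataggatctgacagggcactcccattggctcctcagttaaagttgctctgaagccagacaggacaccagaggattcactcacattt

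Of the 23 genes of bile acid synthesis and transport 2 passed 0.05 (0.413% of all genes), the sterol exporter pair, and 18 had a positive difference (median 0.13). The count was 1 without LnA replicate 3 or 4 or LnC replicate 1 and with the block on replicate number. Cyp7a1, the rate-limiting enzyme of bile acid synthesis, was at 8.99 ± 1.51 in LnC and 8.93 ± 1.18 in LnA rats, a difference of 0.06 (standard error 0.87). Nr0b2, a repressor of Cyp7a1, gave 1.76, with overlapping groups (adjusted p = 0.323). Slco1b2, an uptake transporter for organic anions, gave 0.38 (adjusted p = 0.0715).

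Genes of cholesterol synthesis and uptake leaned towards LnC rats. Of 20 measured, 18 had a positive difference, 13 had groups that did not overlap with LnC higher (2.84% of all genes), 3 passed 0.05 (0.413% of all genes) and none passed 0.01. The median was 0.63, against -0.01 over all genes. Idi1, the isopentenyl diphosphate isomerase, had log2 signals of 10.08, 10.18, 10.30 and 11.02 in LnC rats and 8.74, 8.34, 9.11 and 8.60 in LnA rats. That is a rise of 1.70 over LnA rats (standard error 0.24, adjusted p = 0.0328) with no overlap. Cyp51, the lanosterol demethylase, was higher by 0.87 (adjusted p = 0.0179) and Ebp, the sterol isomerase, by 0.71 (adjusted p = 0.037). Sqle, the squalene epoxidase, gave 1.29 (adjusted p = 0.0933) and Acat2, an acetyl-CoA acetyltransferase, 1.33 (adjusted p = 0.0805), neither of which passed. Of the regulators, the difference was 0.12 for Srebf2, the transcription factor of the pathway, and -0.17 for Insig1, its retention factor, both with overlapping groups. In this list the count past 0.05 was 1 to 7 under other ways of processing and 0 to 2 without 1 array (0 without LnA replicate 4 or LnC replicate 2 or 3), whereas the median stayed between 0.49 and 0.70 in these. The same contrast of lines in TCDD rats had a list median of 0.27, with 15 of 20 positive. There Idi1 gave 1.85, Cyp51 0.45 and Ebp 0.28, none past 0.05. LE minus HW gave 0.01 for Idi1, -0.20 for Cyp51 and -0.08 for Ebp, none past 0.05.

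Fatty acid synthesis leaned the other way. Of 20 genes measured, 13 had a negative difference, 5 had groups that did not overlap with LnC lower (2.85% of all genes), 2 passed 0.05 (0.432% of all genes), and the median was -0.50. Thrsp, a lipogenic regulator, had log2 signals of 11.71, 12.31, 11.82 and 10.84 in LnC rats and 13.32, 14.01, 13.89 and 13.86 in LnA rats. Its difference was -2.10 (standard error 0.31, adjusted p = 0.0343). Fasn, the fatty acid synthase, was at 10.09 ± 0.56 in LnC and 11.91 ± 0.34 in LnA rats, a difference of -1.82 (adjusted p = 0.045). Scd gave -1.81 (adjusted p = 0.235), Elovl6 -1.32 and Acly -1.20, none past the threshold, and the desaturases Fads1 and Fads2 had positive values of 0.38 and 0.26. After quantile normalization or median centring no gene of the list passed 0.05 and 12 of 20 had a negative difference. With the block on replicate number none passed either, and 1 did in the fit of 4 corn oil groups. The count was 0 to 3 without 1 array (3 without LnA replicate 1, and 0 without LnA replicate 2, 3 or 4 or LnC replicate 1 or 3). In TCDD rats the list median of LnC minus LnA was -0.76, with 16 of 20 negative. Thrsp gave -1.24 and Fasn -2.15 there, and LE minus HW gave 0.09 and -0.66 for them, none past 0.05.

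**Figure D2:**
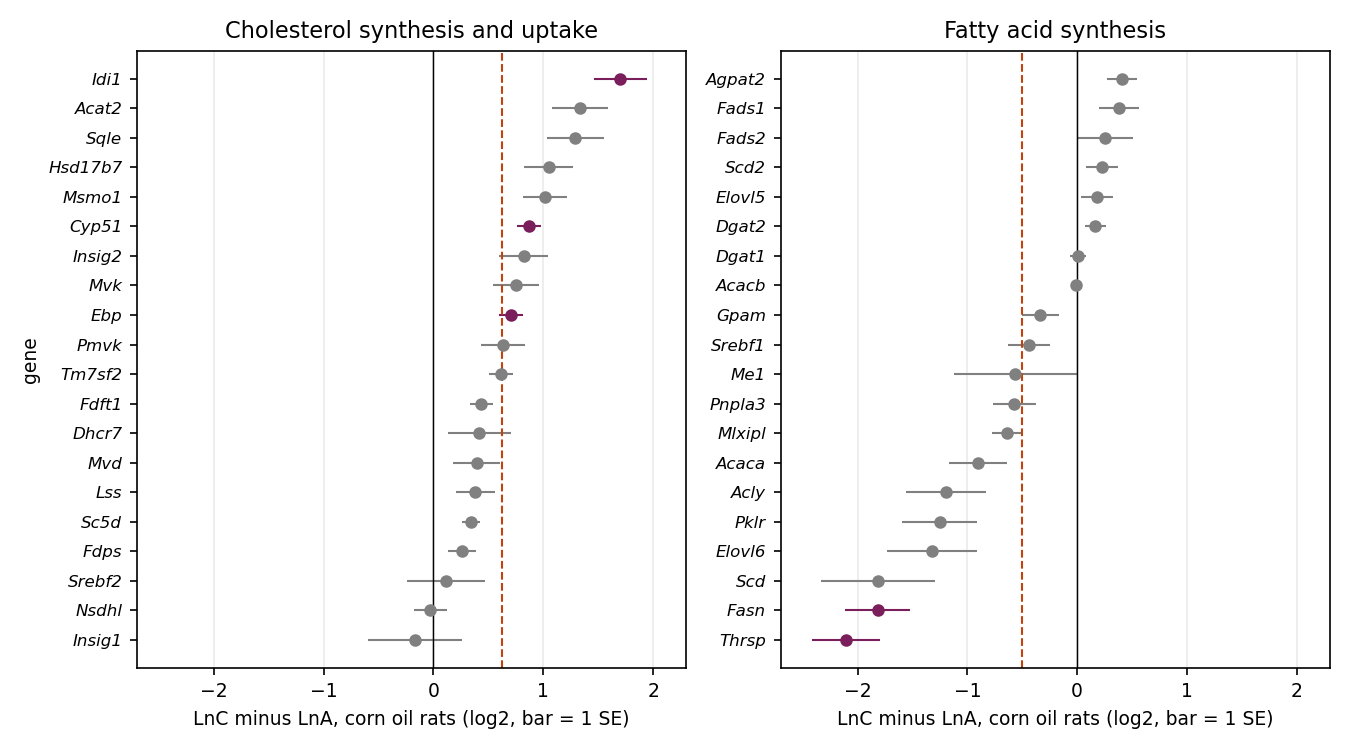
LnC minus LnA in corn oil rats on the log2 scale (x axis, bars of 1 standard error) for 20 genes of cholesterol synthesis and uptake (left) and 20 of fatty acid synthesis (right), with purple points for an adjusted p under 0.05 and the dashed line at the median. On the left 18 of 20 points lie right of 0, and on the right 13 of 20 lie left of it.

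The mitochondrial enzymes Sqor and Bckdhb were both lower in LnC rats. Sqor, the mitochondrial sulfide:quinone oxidoreductase that oxidizes hydrogen sulfide, had log2 signals of 7.11, 7.16, 7.09 and 7.29 in LnC rats and 10.20, 9.79, 9.89 and 9.88 in LnA rats. It was 6.86-fold lower in LnC rats, with a difference of -2.78 (standard error 0.09, adjusted p = 1.36e-05). Bckdhb, a subunit of the dehydrogenase of branched-chain keto acids, had 9.49, 9.49, 9.52 and 9.42 in LnC rats and 11.01, 11.24, 10.99 and 10.88 in LnA rats. Its difference was -1.55 (standard error 0.07, adjusted p = 1.15e-04). Of 34 genes of amino acid catabolism and the urea cycle, Bckdhb was the only one past 0.01 (0.0864% of all genes, lower in LnC). Haao, an enzyme of tryptophan breakdown, joined it at 0.05 (-0.58, adjusted p = 0.0328), where 0.432% of all genes passed with LnC lower. The list's median was 0.03. The count past 0.05 in this list was 3 without LnA replicate 1 and 1 when any 1 of the other 7 arrays was left out.

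Smaller differences were called in enzymes of detoxication and nucleotide breakdown. Gss, the glutathione synthetase, was at 7.32 ± 0.05 in LnC and 7.94 ± 0.10 in LnA rats, a difference of -0.63 (adjusted p = 0.0038). Gstt2, a theta-class glutathione S-transferase, was at 9.21 ± 0.14 in LnC and 8.39 ± 0.04 in LnA rats, a difference of 0.82 (adjusted p = 0.0038). The other 17 of the 18 glutathione S-transferase genes did not pass 0.05 (list median -0.04), and among all genes 0.413% passed with LnC higher. Cyp4v3, a fatty acid hydroxylase, gave 0.50 (adjusted p = 0.00464). It was the only one past 0.05 of 13 genes of CYP families 3 and 4 (median -0.07), against the same 0.413% of all genes. The other Cyp4v3 probe set, with a mean signal of 2.34 over the 8 arrays, gave 0.03 (adjusted p = 0.956 over every probe set). Upb1, the last enzyme of pyrimidine breakdown, was higher in LnC rats by 0.31 (12.86 ± 0.04 against 12.55 ± 0.04, adjusted p = 0.00912), the smallest difference of the 19.

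Among lysosomal and secreted proteins, Creg1, a lysosomal glycoprotein, stood out. Log2 signals of Creg1 were 12.46, 12.31, 12.32 and 12.23 in LnC rats and 9.85, 10.25, 10.28 and 10.30 in LnA rats, a 4.46-fold difference (2.16 on the log2 scale, standard error 0.11, adjusted p = 1.28e-04). The second Creg1 probe set gave 1.18 (adjusted p = 0.0365 over every probe set). Tpp1, a lysosomal tripeptidyl peptidase, was at 9.80 ± 0.05 in LnC and 8.93 ± 0.07 in LnA rats, a difference of 0.87 (adjusted p = 1.46e-04). Spink1, a secreted trypsin inhibitor, was at 6.63 ± 0.24 in LnC and 8.36 ± 0.28 in LnA rats, a difference of -1.73 (adjusted p = 0.00753), while its other probe sets gave -2.54 and -0.07, so the size for Spink1 is uncertain.

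The remaining calls fell in genes of mixed function. RT1-N2 is a class Ib gene of the rat major histocompatibility complex, a family of closely related copies, so its signal may include other members. The log2 signals measured for it were 3.51, 3.54, 3.85 and 3.54 in LnC rats, at the lowest array median, and 8.50, 8.64, 8.19 and 8.24 in LnA rats. LnC minus LnA was -4.78 (standard error 0.12, adjusted p = 2.55e-06). None of 18 genes of antigen presentation passed 0.05, against 0.845% of all genes, which does not set them apart (median 0.19, 13 of 18 positive). Marveld1, a MARVEL domain protein, was low in LnC rats (2.31, 2.48, 2.33 and 2.32) and at 6.43, 8.28, 8.62 and 8.73 in LnA rats, a difference of -5.66 (standard error 0.48, adjusted p = 0.0038), and its second probe set gave -1.25 (adjusted p = 0.583). Selenow, a small selenoprotein, had 7.39, 7.81, 7.43 and 7.59 in LnC rats and 5.31, 5.28, 5.54 and 5.35 in LnA rats, a difference of 2.18 (standard error 0.10, adjusted p = 1.15e-04). Myo1d, an unconventional myosin, gave 1.13 (adjusted p = 0.0038) and Lrrc59, a protein of the endoplasmic reticulum membrane, -0.91 (adjusted p = 0.00717). The other Myo1d probe set, with a mean signal of 2.36 over the 8 arrays, gave 0.04 (adjusted p = 0.956 over every probe set).

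Of the other pathways, 4 held 1 gene past 0.05 each, against 0.845% of all genes. Ifitm3, an interferon-induced antiviral membrane protein, was the only one of 18 interferon-induced genes past 0.05, with 12.04 ± 0.18 in LnC and 9.72 ± 0.61 in LnA rats (difference 2.32, adjusted p = 0.0179). In that list 16 had a positive difference and the median was 0.25, with Irf7, an interferon regulatory factor, at 1.26 (adjusted p = 0.0561). Without LnC replicate 3 the interferon median was 0.04 and 11 of 18 were positive, and no gene of the list passed 0.05 without LnA replicate 3 or 4 or LnC replicate 1, 3 or 4. Of 18 genes of glucose metabolism 16 had a negative difference, Eno1, an enolase of glycolysis, passed 0.05 (-0.32, adjusted p = 0.0131), and the median was -0.09. The glucose median was -0.22 without LnA replicate 1, with 3 genes past 0.05, and -0.06 without LnA replicate 2, and no gene of that list passed after median centring, with limma's trend or in the fit of 4 corn oil groups. Acaa2, a thiolase of mitochondrial beta-oxidation, was the only one of 24 genes of fatty acid oxidation and ketogenesis past 0.05 (0.67, adjusted p = 0.0265; list median 0.11), and F5, coagulation factor V, the only one of 25 acute phase, complement and coagulation genes (-0.36, adjusted p = 0.0166; list median 0.10). Neither list held a gene past 0.05 after median centring. The oxidation list held none without LnA replicate 2, 3 or 4 or LnC replicate 1, 3 or 4, and the acute phase list none without LnA replicate 2 or LnC replicate 4. With the block on replicate number none of these 4 lists held one.

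Beyond the lists, Olr59, Dsc2 and Sirt3 had the largest differences among the other genes past 0.05 and were named after their values were seen. Olr59, an olfactory receptor gene, was at 5.82 ± 0.54 in LnC and 9.06 ± 0.60 in LnA rats (difference -3.24, adjusted p = 0.0131). Dsc2, a desmosomal cadherin, was at 9.93 ± 0.24 and 7.31 ± 0.60 (difference 2.62, adjusted p = 0.0131). Sirt3, a mitochondrial deacetylase, was at 5.21 ± 0.66 and 7.44 ± 0.26 (difference -2.24, adjusted p = 0.0328).

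In all, 12 of the 29 lists held a gene past 0.05 and 17 held none, where 0.845% of all genes passed. Besides the AHR gene battery, the AHR complex and the marker and antigen presentation lists above, those without were NRF2 targets (12 genes, median -0.16), CYP family 2 (19, -0.01), glucuronidation and sulfation (16, -0.01), sex- and growth hormone-dependent genes (23, -0.01), clock genes (14), immediate early genes (21, -0.05), endoplasmic reticulum folding (24, 0.04), cell cycle (21), heme and iron (13, 0.02), the insulin and IGF axis (19, 0.08), bile duct cell markers (8, -0.02) and markers of blood, pancreas and fat (14, -0.01). Not all of the lists without stayed empty under other processing. For example, CYP family 2 held 2 genes past 0.05 with array weights. The sex- and growth hormone-dependent list held 3 in the fit of 4 corn oil groups. Cyp2c12, a steroid hydroxylase known for its predominance in female rat liver, had the largest difference of the lists without a gene past 0.05 and was singled out after its values were seen. Signals of 11.19, 12.12, 12.74 and 11.31 were found in LnC rats and of 6.71, 9.03, 9.65 and 6.96 in LnA rats. The groups of Cyp2c12 did not overlap, yet with the spread in LnA rats the difference of 3.76 (standard error 0.74) did not pass (adjusted p = 0.0872). The same contrast of lines gave 4.52 for Cyp2c12 in TCDD rats (adjusted p = 0.00517), and LE minus HW gave 4.41 (adjusted p = 1.60e-04), both past 0.01.

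LnC and LnA rats given TCDD offered a second comparison of the lines in 8 other rats. Of the 19 genes, 19 kept the sign of their difference (50.9% of all genes had the same sign), 16 again had groups that did not overlap, against 5.78% of all genes, and 7 were called again at 0.01, against 0.192%. By direction, groups that did not overlap made up 3.04% (higher in LnC) and 2.75% (lower) of all genes. Those called again were Agtr1a (-6.51), Marveld1 (-4.50), RT1-N2 (-4.58), Sqor (-2.61), Bckdhb (-1.61), Selenow (2.06) and Tpp1 (0.74). Agtr1a had log2 signals of 4.16, 4.25, 4.15 and 4.22 in LnC rats and of 10.40, 10.60, 11.03 and 10.80 in LnA rats given TCDD, much as in corn oil rats. Gss, Myo1d and Upb1 had overlapping groups after TCDD. The values that chose the 19 came from the corn oil arrays, and 17 of the 19 differences were smaller in size in TCDD rats.

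For Lox the difference between the lines was smaller in TCDD rats, and 12 of the 19 genes, Lox not among the 7 above, passed 0.05 in TCDD rats (0.826% of all genes, 0.451% lower in LnC). LnA rats given TCDD had log2 signals of 6.08, 4.39, 5.10 and 5.52, below every corn oil LnA rat, while LnC rats were low as with corn oil (2.13, 2.19, 2.12 and 2.57), where a fall could not be seen. The change in the difference therefore rests on LnA rats, and whether the lines responded differently cannot be told from it. LnC minus LnA for Lox was -3.02 in TCDD rats against -6.55 in corn oil rats, and the interaction of 3.53 (standard error 0.42) had an adjusted p of 0.00407. Over all genes 8 interactions were called (0.0768%), and Lox was the only one of the 19 among them. The interaction of Lox lay above 0.01 without LnC replicates 1 or 4 or LnA replicate 3 given TCDD, or without LnC replicates 1 or 2 or LnA replicates 2, 3 or 4 given corn oil (adjusted p up to 0.0142), and was 0.0302 in a fit blocked on replicate number. Of the 88 genes past 0.05, 84 kept their sign in TCDD rats. Slc13a2, a sodium-dependent dicarboxylate transporter, was named after its values were seen: its difference was 1.97 in corn oil rats (adjusted p = 0.0483) and 0.02 in TCDD rats, where both lines were low.

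**Figure D3:**
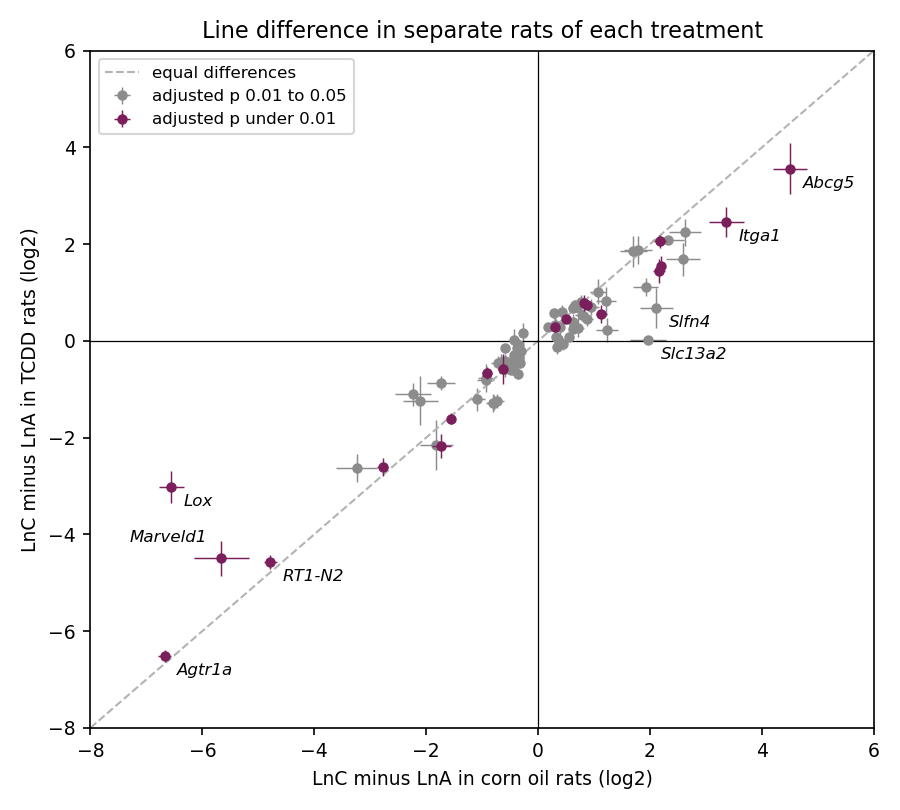
LnC minus LnA on the log2 scale in corn oil rats (x axis) and in TCDD rats (y axis) for the 88 genes past an adjusted p of 0.05, with bars of 1 standard error and purple for the 19 past 0.01. Agtr1a and RT1-N2 lie near the dashed line of equal differences, and Lox lies above it at -6.55 and -3.02.

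The parental strains gave a comparison of the same receptor forms on other backgrounds. LE minus HW runs in the same direction as LnC minus LnA, wildtype minus deleted, and 27 genes were called in it (0.259%). Of the 19 genes, 11 had the same sign (64.0% over all genes), 4 had groups that did not overlap in the same direction and 3 in the opposite one, and 3 were called in the same direction, Agtr1a (-7.25), Sqor (-3.34) and Marveld1 (-4.12). Bckdhb gave -1.31 (adjusted p = 0.0359) and brought the count at 0.05 to 4, against 0.989% of all genes and 0.394% lower in LE. Groups without overlap made up 8.41% of all genes, 5.42% with LE lower. For Agtr1a, Sqor, Marveld1 and Bckdhb the 4 LE rats lay entirely below the 4 HW rats, as the LnC rats lay below the LnA rats: Sqor, for example, stood at 6.71 to 7.07 in LE and 10.05 to 10.43 in HW rats.

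Of the 88 genes past 0.05 between the lines, 43 had the same sign in the strains, against 64.0% of all genes. Groups did not overlap in the same direction for 12 and in the opposite one for 18. Over all genes LE and HW groups without overlap made up 8.41% (3.00% with LE higher, 5.42% with LE lower). In each direction 6 of the 88 passed 0.05 in the strains, where 0.989% of all genes passed.

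Creg1 and Itga1 were reversed between the pairs. Creg1 was at 12.33 ± 0.09 in LnC and 12.46 ± 0.33 in HW rats, and at 10.17 ± 0.21 in LnA and 9.95 ± 0.21 in LE rats. LE minus HW was thus -2.51 (adjusted p = 0.00122), the opposite of the difference between the lines. Itga1 was at 4.47 ± 0.65 in LE and 6.76 ± 0.36 in HW rats (-2.29, adjusted p = 0.0305). HW rats thus had the higher signal of both genes among the strains, and LnC rats among the lines.

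For Lox, RT1-N2 and Selenow 1 line stood outside both parental strains. RT1-N2 was at 9.29 to 9.63 in LE rats and at 8.98, 5.29, 9.31 and 9.48 in HW rats, so that only the LnC rats, all at 3.51 to 3.85, were near the array median. Lox ranged from 4.89 to 7.35 in LE rats and from 2.16 to 7.64 in HW rats, a spread wider than that within either line. Selenow was at 5.84 ± 0.14 in LE and 5.82 ± 0.73 in HW rats, closer to LnA (5.37 ± 0.12) than to LnC (7.55 ± 0.19). The contrast of LnC minus LnA against LE minus HW was added after the data were seen. It includes the corn oil values of LnC and LnA rats that chose the 19, so calls among the 19 were favoured by that choice. The contrast was called for 66 genes (0.634%), among them 8 of the 19: Creg1 (4.67), Itga1 (5.65), Lox (-8.33), RT1-N2 (-5.97), Selenow (2.16), Gstt2 (1.28), Myo1d (1.22) and Lrrc59 (-1.47). The lines were scanned on another day than the parental strains, so scan day and the step from lines to strains cannot be told apart, and with scan day as a block the parental comparison had 8 called genes.

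**Figure D4:**
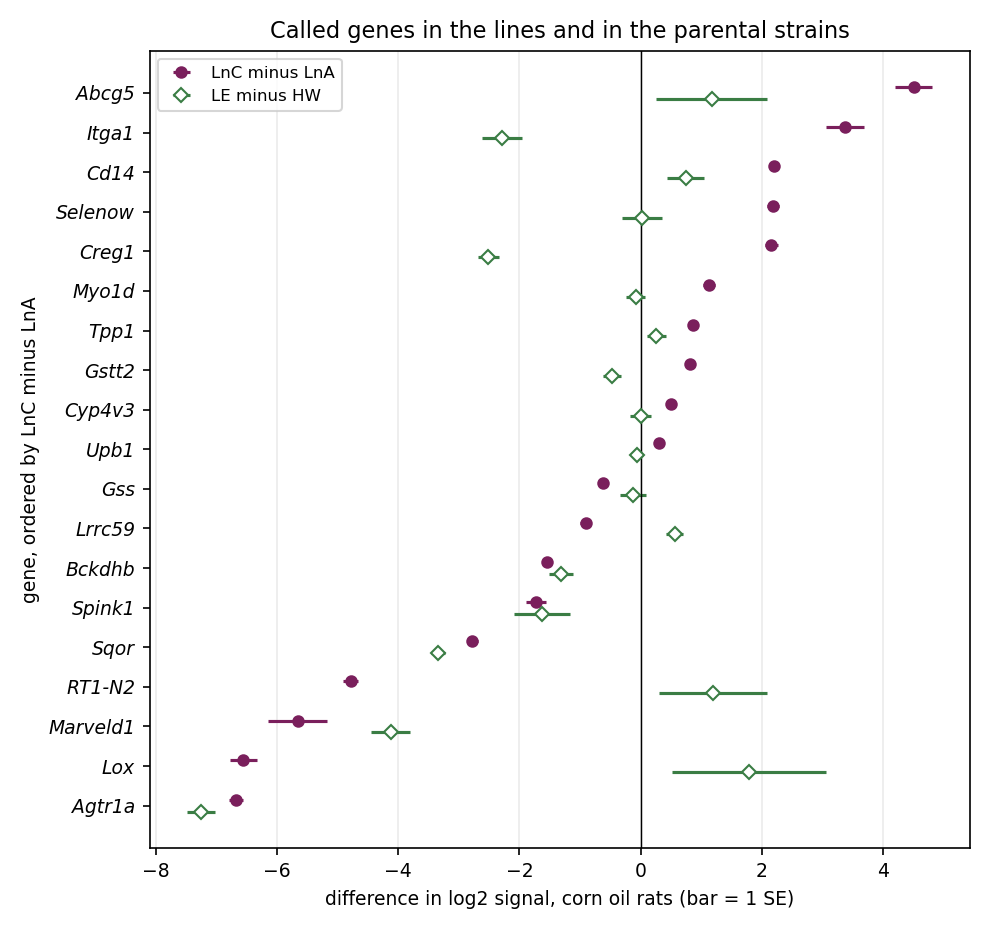
Difference in log2 signal in corn oil rats (x axis, bars of 1 standard error) for the 19 genes, as LnC minus LnA (circles) and as LE minus HW (diamonds), 4 rats per group. Agtr1a, Marveld1, Sqor and Bckdhb lie left of 0 in both, while Creg1 and Itga1 lie on opposite sides.

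By gene order in GRCr8, none of the 18 called genes that could be placed had another called gene within 5 genes on either side. Over all 10378 placed genes the share was 1.72%, so 0 of 18 does not set the called genes apart. Of the 18, 1 gene, Abcg5, lay on the chromosome of Ahr (5.56%, against 4.22% of all placed genes). The 10 neighbours of Ahr had differences of -0.13 to 0.54. None passed 0.05 (0.845% of all genes) and none had groups that did not overlap (5.70% of all genes). At 0.05, 13 of 87 placed genes had another within 5 genes (14.9%, against 7.80% of all placed genes), among them Abcg5, Abcg8 and Haao in 1 stretch of the Ahr chromosome.

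RefSeq promoter windows were at hand for 14 of the 19, and 6 held the core motif GCGTG on either strand (42.9%), against 4036 of 8610 windows of tested genes (46.9%). Bckdhb, Gss, Lrrc59 and Selenow held 1 copy, and Creg1 and Upb1 held 2. The windows of Creg1 (chr13:80552571-80552870, plus strand) and Agtr1a (chr17:34435383-34435682, minus strand, GRCr8) are shown as those of a gene reversed in the parental strains and of the gene with the largest difference. Capitals mark GCGTG or its reverse complement.

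Creg1 promoter: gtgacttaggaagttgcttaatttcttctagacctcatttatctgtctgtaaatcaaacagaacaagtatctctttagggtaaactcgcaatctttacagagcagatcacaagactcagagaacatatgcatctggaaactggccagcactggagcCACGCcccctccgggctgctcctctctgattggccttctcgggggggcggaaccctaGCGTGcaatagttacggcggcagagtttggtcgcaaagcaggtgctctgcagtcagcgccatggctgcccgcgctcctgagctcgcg

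Agtr1a promoter: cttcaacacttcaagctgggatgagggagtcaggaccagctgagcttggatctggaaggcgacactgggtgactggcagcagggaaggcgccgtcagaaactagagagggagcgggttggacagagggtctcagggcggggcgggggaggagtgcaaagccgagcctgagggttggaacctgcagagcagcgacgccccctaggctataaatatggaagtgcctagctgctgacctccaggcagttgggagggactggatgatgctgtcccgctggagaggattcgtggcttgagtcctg

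No copy was found in the window of Agtr1a, which says only that these letters are not in this stretch.

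Not all 19 calls were equally firm. Agtr1a, Bckdhb, Cd14, Lox, RT1-N2 and Sqor were called under every alternative tried and without any 1 array, and Creg1, Selenow and Tpp1 without any 1 array. Spink1 and Upb1 lost their call without any 1 of the 8 arrays (adjusted p up to 0.0362 and 0.0477), and Abcg5 without LnA replicate 3 or 4 (up to 0.0128). The other 7 kept theirs only without LnC replicate 3 (Cyp4v3), LnA replicate 1 (Gss, Marveld1 and Myo1d), LnC replicate 2 or 4 (Gstt2), LnC replicate 4 (Itga1) or LnC replicate 2 (Lrrc59), with adjusted p up to 0.0412 otherwise. The count of 19 was 9 to 23 when 1 array was left out, and 12, 11, 9 and 10 without LnC replicate 1 and LnA replicates 2, 3 and 4.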

How the data were processed

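Liver RNA of 40 rats was measured on Affymetrix RAE230A arrays, 1 per rat. Groups were taken from the sample labels, and 0 value columns of the table were left unused. The authors deposited log2 signals, 1 per probe set and array. R 2.3.1 with the packages affy 1.10.0 and GCRMA 2.4.1 is listed in the submitters' processing notes. GCRMA corrects background by probe sequence and equalizes the distribution over arrays, so a shift of all genes would not be seen. The paper's methods name RMA and an Entrez-based probe map, which need the probe-level data and were not rerun. The scanner's experiment files that the authors deposited (other text values) gave scan order, fluidics module and chip lot.

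Of 15866 probe sets other than controls, 12783 had 1 gene symbol, 312 several and 2771 none here. The symbols of 12748 were looked up by Entrez ID in RefSeq and 0 changed. The probe set of highest mean over the 8 arrays stood for a gene, which gave 10411 genes, 1868 of them with several probe sets. Each comparison of 4 against 4 arrays was fitted on its own with limma 3.58.1 (R 4.3.3) and adjusted by Benjamini-Hochberg over all 10411 genes. The study's threshold of 0.01 on the adjusted p defined a call, and counts at 0.05 stand beside it. The number of arrays limits the precision: a two-sided exact test of 1 gene over the 70 divisions of 8 arrays cannot go below 0.0286. The interaction was fitted on 16 arrays of LnC and LnA rats and the contrast of lines with strains on the 16 corn oil arrays. The code was tested on simulated data.

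The members, gene lists and tests were chosen with earlier results of these data known. Genes named are Ahr, the called genes without overlap (up to 12 in each direction), list members past a threshold and the AHR gene battery; others are marked as chosen after their values were seen, or stand as examples of a list that did not pass. Promoter windows and gene order came from RefSeq (GRCr8), with Python 3.11.15, pandas 2.3.3 and matplotlib 3.10.9. Alternatives were averaged probe sets per gene, the lowest 40% of signals left out, quantile normalization, median centring, limma's trend, array weights, replicate number as a block, 1 fit over more groups and leaving out each array.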

Additional observations from a re-analysis of the deposited data

Results flagged for a closer look

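In 8 of 54 groups of 4 rats tested (each line in the 19 called genes, Ahr and the AHR gene battery), 1 rat lay far from the other 3, by the gap to the nearest rat divided by the range of the group. Chance flags about 1 in 20 groups. In LnC rats the ratio was 0.897 for RT1-N2, 0.88 for Lrrc59, 0.858 for Lox, 0.846 for Itga1 and 0.832 for Marveld1. In LnA rats it was 0.925 for Cyp1a2, 0.888 for Creg1 and 0.868 for Aldh3a1. The ranges of RT1-N2, Lox and Marveld1 in LnC rats were small beside the differences between the lines, which were -4.78, -6.55 and -5.66.

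Among the 19 called genes, effects that differed by treatment or between the pairs of rats were found in 8. Each had an adjusted p under 0.01 from limma for the difference itself. Over all genes 8 passed 0.01 for the difference by treatment (0.0768%) and 66 for that between the pairs (0.634%). LnC minus LnA for Lox was 3.53 higher in TCDD rats than in corn oil rats, with LnC rats low in both, so that a fall in that line could not be seen. LnC minus LnA exceeded LE minus HW by 5.65 for Itga1, 4.67 for Creg1, 2.16 for Selenow, 1.28 for Gstt2 and 1.22 for Myo1d on the log2 scale. It was lower than LE minus HW for Lox (-8.33), RT1-N2 (-5.97) and Lrrc59 (-1.47).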

How the results depend on the processing

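The count of 19 genes called between the lines in corn oil rats was 16 to 24 with probe sets averaged per gene, the lowest 40% of signals left out, quantile normalization, median centring and limma's trend. It was 43 with array weights (19 of them shared), 64 with 1 fit over 8 groups, 41 with 1 fit over 4 corn oil groups and 9 to 23 without 1 array. With the replicate number as a block it was 7 (1 higher, 6 lower, all of them among the 19). In the LnC and LnA corn oil arrays replicate numbers also stand for the fluidics module, which does not hold throughout the TCDD and parental arrays. The block is given as an alternative only. Same-numbered LnC and LnA corn oil arrays had correlations of 0.00, -0.00, 0.15 and -0.14 in their deviations from the group means over 1112 genes, so the numbers did not pair the lines. Same-numbered LnA arrays with corn oil and TCDD had 0.18, 0.19, 0.12 and 0.18, 3 of 4 best with their own number. The LnC arrays had 0.03, -0.27, 0.09 and -0.25, so between treatments the numbers went together in LnA rats alone. Between the lines given TCDD the values were 0.22, -0.11, -0.17 and 0.21, with replicates 1 and 4 best with their own number. In TCDD rats the count of 20 was 39 with low signals left out, 35 with the trend, 43 with array weights, 4 with the replicate block, 129 with 1 fit over 8 groups and 6 to 20 without 1 array (6, 6 and 13 without LnC replicates 2, 3 and 4, and 9 and 7 without LnA replicates 2 and 3). The count of 27 for LE minus HW was 48 with array weights, 8 with the replicate block, 170 with 1 fit over 8 groups, 8 with scan day as a block and 10 to 25 without 1 array (13, 10, 14 and 11 without LE replicates 1 to 4). The 8 interactions were 1 with the replicate block and 1 to 10 without 1 array. They were 1 without LnA replicate 3 given TCDD or without LnC replicates 1 or 2 or LnA replicates 2, 3 or 4 given corn oil, 2 without LnC replicate 1 given TCDD, and 4 without LnC replicates 3 or 4 given TCDD, LnC replicate 3 or LnA replicate 1 given corn oil. Genes called in both corn oil and TCDD rats numbered 14 with low signals left out, 14 with the trend, 13 with array weights, 2 with the replicate block, 33 with 1 fit over 8 groups and 4 to 8 without 1 array (4 without replicate 3 of either line given TCDD). Those called in both lines and parental strains numbered 10 with 1 fit over 8 groups, 5 with 1 fit over 4 corn oil groups and 2 to 4 without 1 array. The causes were not tested. Of 323 values of the 19 genes under the alternatives 223 kept their call, 100 did not and 0 changed sign. Signals near the array median limit the size of the differences for the 4 called genes that were low in 1 line.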
